A study of Homo sapiens with 12 samples.

Results

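The 10 genes described here encode subunits of the Polycomb repressive complexes: EZH1, EZH2, EED, SUZ12 and JARID2 of complex PRC2, and BMI1, RNF2, RING1, CBX2 and CBX7 of complex PRC1. They were chosen by name, and each matched 1 of the 58037 gene identifiers in the raw count table. Their transcripts were counted in a pair of prostate cancer lines, DU-145/tet-MUC1shRNA and LNCaP-AI/tet-MUC1shRNA. Doxycycline (DOX), at 500 ng/ml over 7 days, or vehicle was given to either line, which made 4 groups of 3 samples and 12 in all. DU-145 is an androgen-insensitive human prostate cancer line. LNCaP-AI is an androgen-independent line selected from C4-2B cells, themselves derived from LNCaP cells, by long culture without androgens. The sources differ on the medium of DU-145 cells. The labels give phenol red-free medium with charcoal-stripped serum for both lines, whereas the study's methods give it for LNCaP-AI cells and ordinary fetal bovine serum for DU-145 cells. Medium and line therefore cannot be told apart in comparisons between the lines. All 12 samples carry the same DOX-inducible shRNA against MUC1, which encodes a transmembrane mucin. The labels call the vehicle samples shCTL and the DOX samples shMUC1. The study selected transduced cells with puromycin. No sample here pairs DOX with a control shRNA, and so the drug and the shRNA cannot be told apart. Each line is represented by 1 transduced derivative, and the samples are described as triplicates without further detail, so that p-values measure the spread between these samples only. In bulk RNA, fewer cells expressing a gene and less RNA per cell cannot be told apart.

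Polycomb proteins keep developmental genes silent through histone marks. PRC2 methylates lysine 27 of histone H3 through its catalytic subunit EZH2 or EZH1, which needs the partners EED and SUZ12. PRC1 places ubiquitin on histone H2A through the E3 ligases RING1 and RNF2, each paired with a PCGF protein such as BMI1, and in its canonical form carries a CBX protein that reads methylated lysine 27. EZH2 is known in prostate cancer for high levels in metastatic and castration-resistant disease, and EZH1 for being the more prominent enzyme in non-dividing cells.

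The depth was 10423437 to 13544153 counts per sample in DU-145 cells and 16569613 to 26961777 in LNCaP-AI cells, and all 10 genes passed the filter on low counts in each comparison. MUC1 checked the labels, with 74, 60 and 59 counts in the DU-145 vehicle samples against 3 counts in each DOX sample (adjusted p = 1.37e-09, edgeR's quasi-likelihood test with Benjamini-Hochberg adjustment). The LNCaP-AI vehicle samples had 36, 25 and 52 counts, against 8, 6 and 3 under DOX (adjusted p = 0.0139 by the same edgeR test). A value of 3 counts per sample was taken as the floor. The prostate luminal markers KLK2, KLK3, FOLH1 and HOXB13 had no count in DU-145 cells, whereas in LNCaP-AI cells KLK3 was at 132 to 448 CPM (counts per 1000000, normalized) and FOLH1 at 523 to 1187 CPM. Of the 7 luminal markers listed, 6 were under 1 CPM in DU-145 cells and the other was expressed there. The 7 together summed to 23.4 to 30.7 CPM with vehicle and 37.9 to 42.5 with DOX in that line. The DU-145 markers VIM, CAV1, CD44 and AXL were high in that line, but KRT5 was under 1 CPM in its 6 samples. The highest sum in any sample was 0.243 CPM for 3 immune markers, 8.68 for 3 endothelial markers, 23.7 for 4 fibroblast markers and 45.5 for 4 neuroendocrine markers. The LNCaP-AI samples divided in a way that the treatment did not explain. The leading principal component (83.3% of their variance) grouped DOX 2 and DOX 3 with vehicle 1, here the first side, and DOX 1 with vehicle 2 and vehicle 3, the second side. Samples of the second side carried CD44, at 69.5 to 83.5 CPM, CAV1, AXL and KRT5, each of which was under 1 CPM in all 3 samples of the first. Neither the labels nor the study's methods name a batch that matches this division, and its part in the results below was not tested. The LNCaP-AI results of the members are therefore also given within the sides, as differences of mean log2 CPM, the first side before the second.

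The promoters of 9 of the 10 genes were found in RefSeq (GRCh38.p14), with CBX2 missing. Those of 5 genes are shown because the results turn on them: EZH2, the only member called in LNCaP-AI cells, its paralog EZH1, and BMI1, CBX7 and JARID2, which had the largest changes among the members in DU-145 cells. Each runs 5′ to 3′ on the strand of the gene from 250 bases before the start of transcription to 20 bases past it. Capitals mark exact matches on either strand to TTTGGCGC and TTTCGCGC (letters bound by E2F factors), TTTGAA (the core of the cell cycle homology region, CHR) or CCAAT (bound by NF-Y).
EZH2, chr7:148884272-148884541, minus strand: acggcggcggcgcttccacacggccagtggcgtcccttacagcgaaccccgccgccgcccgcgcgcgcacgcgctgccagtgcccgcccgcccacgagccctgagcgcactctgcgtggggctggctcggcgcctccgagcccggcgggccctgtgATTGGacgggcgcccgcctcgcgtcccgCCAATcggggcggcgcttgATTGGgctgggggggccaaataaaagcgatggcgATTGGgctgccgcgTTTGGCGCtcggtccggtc
EZH1, chr17:42745021-42745290, minus strand: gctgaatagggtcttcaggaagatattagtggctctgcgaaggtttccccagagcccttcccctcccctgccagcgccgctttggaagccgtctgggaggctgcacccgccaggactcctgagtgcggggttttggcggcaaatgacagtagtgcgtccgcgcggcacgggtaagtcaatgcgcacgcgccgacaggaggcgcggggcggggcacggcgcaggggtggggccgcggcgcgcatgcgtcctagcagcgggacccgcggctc
JARID2, chr6:15245819-15246088, plus strand: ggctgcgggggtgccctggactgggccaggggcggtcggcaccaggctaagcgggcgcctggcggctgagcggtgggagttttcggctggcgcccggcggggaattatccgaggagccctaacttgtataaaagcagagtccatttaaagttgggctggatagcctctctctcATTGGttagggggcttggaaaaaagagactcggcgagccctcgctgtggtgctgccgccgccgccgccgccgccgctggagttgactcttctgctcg
BMI1, chr10:22320849-22321118, plus strand: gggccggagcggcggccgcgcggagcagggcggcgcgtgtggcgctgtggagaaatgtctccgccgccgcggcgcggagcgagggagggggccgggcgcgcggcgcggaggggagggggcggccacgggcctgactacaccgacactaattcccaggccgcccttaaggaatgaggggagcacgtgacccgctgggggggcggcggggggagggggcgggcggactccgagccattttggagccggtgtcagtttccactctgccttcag
CBX7, chr22:39152661-39152930, minus strand: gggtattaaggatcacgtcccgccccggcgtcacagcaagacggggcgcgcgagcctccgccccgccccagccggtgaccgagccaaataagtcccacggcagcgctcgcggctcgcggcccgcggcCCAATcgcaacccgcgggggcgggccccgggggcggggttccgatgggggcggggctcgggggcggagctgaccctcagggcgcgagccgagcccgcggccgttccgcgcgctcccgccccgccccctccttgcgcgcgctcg
The EZH2 window held TTTGGCGC, at base 2 of the transcript, and CCAAT or its complement ATTGG at 4 places, between 94 and 13 bases before the start. JARID2 held a single ATTGG, 77 bases before the start, CBX7 a single CCAAT, 123 bases before it, and EZH1 and BMI1 held none of the searched letters. EZH2, JARID2 and BMI1 each have another listed promoter, not shown, in which none of the searched letters was found. The search covered 300 bases, to 50 past the start. Of the members not shown, SUZ12 held TTTGAA and CCAAT, EED held ATTGG, and RNF2 and RING1 held none of the searched letters. For E2F factors only TTTGGCGC and TTTCGCGC were searched, so other letters that these factors bind would be missed in any member. In all 35116 promoters of 300 bases in the table, TTTGGCGC was found in 0.6521%, TTTCGCGC in 0.5154%, TTTGAA in 15.1612% and CCAAT in 34.6139%. A match describes the letters and says nothing of whether a factor binds there.

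In DU-145 cells, silencing MUC1 was accompanied by higher JARID2 and EZH1 and by lower BMI1, CBX7, RNF2 and SUZ12 transcripts. Of the 10 genes, 2 rose and 4 fell at an adjusted p under 0.05, in a comparison in which 51.5% of the 13644 genes tested were called, 26.3% as higher and 25.3% as lower. The share of members called was thus near that of all genes, and their median log2 fold change was -0.17 against 0.00 for all genes. The plot of the members by sample shows the 12 values behind each result.

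**Figure D1:**
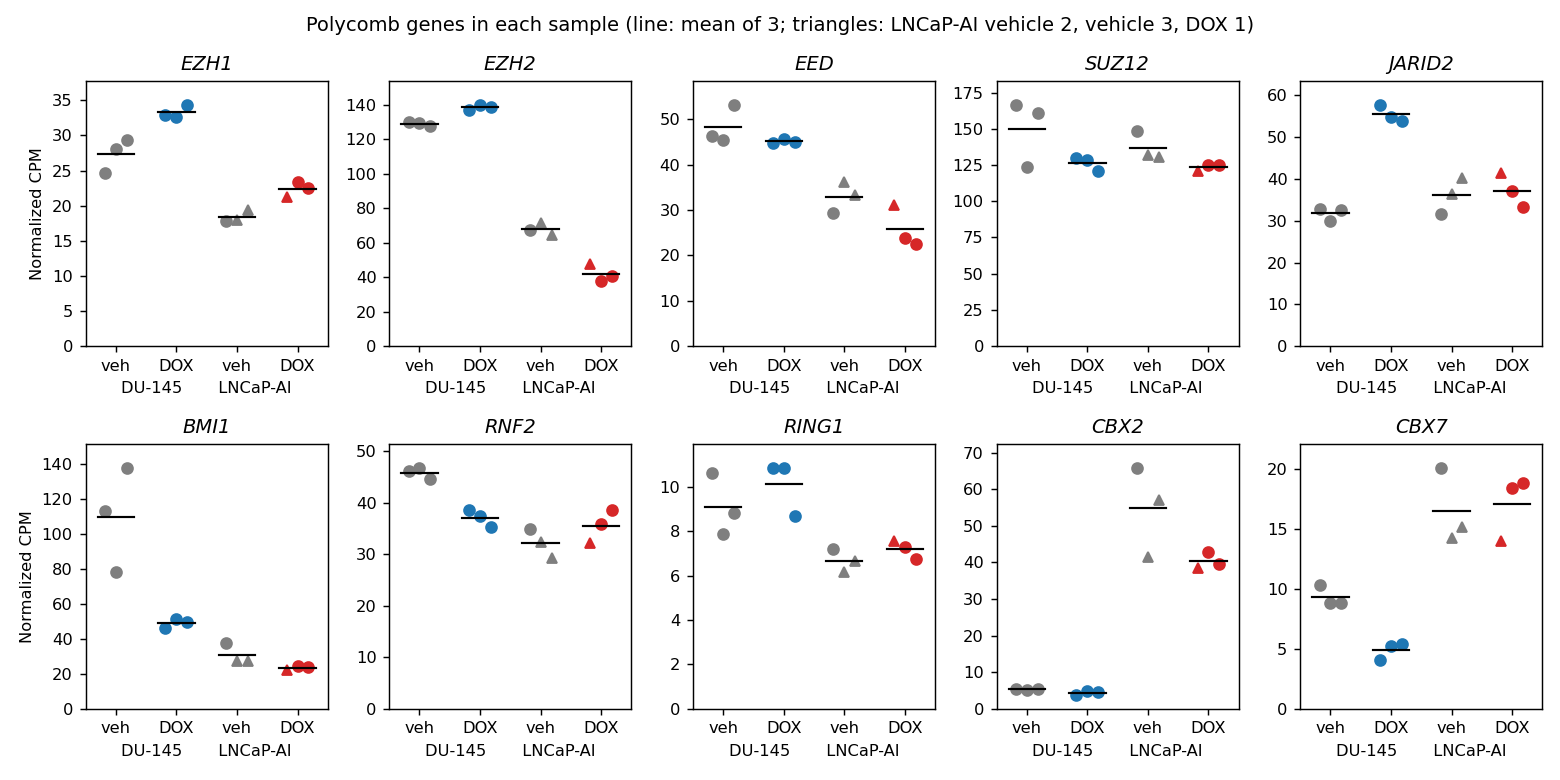
Normalized CPM (vertical axis, linear from 0) of the 10 genes in each of the 12 samples, by line and treatment, with the mean of 3 samples as a horizontal line and triangles for LNCaP-AI vehicle 2, vehicle 3 and DOX 1. BMI1 and CBX7 drop and JARID2 climbs with DOX in DU-145 cells, EZH2 drops from 67.8 to 42.0 CPM in LNCaP-AI cells, and CBX2 is low in DU-145 cells.

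Among the catalytic subunits, EZH2 (chr7:148807257-148884321, minus strand) was steady in DU-145 cells, at 129.9, 129.8 and 127.7 CPM with vehicle and 137.0, 140.0 and 139.0 with DOX. The 3 DOX values lay just above the 3 vehicle values. The difference in means, from 129 ± 1.23 to 139 ± 1.53 CPM (SD, n = 3), was a log2 fold change of 0.11 with a 95% interval from -0.03 to 0.24 (adjusted p = 0.165, edgeR's quasi-likelihood test), and so did not pass. EZH1 (chr17:42700275-42745049, minus strand) had 24.6, 28.0 and 29.4 CPM with vehicle and 32.8, 32.7 and 34.3 with DOX. The DOX values all lay above the vehicle values, and EZH1 rose by a log2 fold change of 0.29 (SE 0.0906, adjusted p = 0.0114 by the same edgeR test). Without vehicle 1, the lowest sample, the value was 0.19 and did not pass (adjusted p = 0.122, edgeR).

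EED (chr11:86201212-86278813), which binds the methylated histone and stimulates the enzyme, had 46.2, 45.3 and 53.1 CPM with vehicle and 44.8, 45.6 and 45.1 with DOX in DU-145 cells. The groups overlapped, and the log2 fold change of -0.09 had an interval from -0.26 to 0.08 (adjusted p = 0.377, edgeR). SUZ12 (chr17:31937007-32001038), the scaffold of PRC2, had 166, 124 and 161 CPM with vehicle and 130, 129 and 121 with DOX. Vehicle 2 lay within the range of the DOX samples. The log2 fold change of SUZ12, -0.24 (SE 0.0886, adjusted p = 0.0281, edgeR), was called with all 6 samples but in only 1 of 6 fits that left out a sample, the fit without vehicle 2. A pseudogene copy, SUZ12P1, was counted separately with 151 to 358 counts per sample, and how reads shared by the copies were assigned is not given in the sources used here.

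JARID2 (chr6:15246069-15522042), an accessory subunit that helps recruit PRC2, had the largest increase of the 10 genes. It stood at 32.8, 30.1 and 32.6 CPM in the DU-145 vehicle samples and at 57.7, 54.9 and 53.8 in the DOX samples. The groups were far apart, 31.8 ± 1.52 against 55.5 ± 1.98 CPM (SD, n = 3), a log2 fold change of 0.81 (SE 0.0781, 1.75-fold, adjusted p = 8e-08, edgeR). An antisense gene that lies inside it, JARID2-AS1 (chr6:15247815-15248634), had at most 6 counts in any sample.

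BMI1 (chr10:22321099-22331484), the PCGF subunit best known for the self-renewal of stem cells and for repression of the CDKN2A locus, had the largest decrease. Its DU-145 vehicle samples varied, at 113, 78.0 and 138 CPM, whereas the DOX samples were 46.1, 51.4 and 49.8. All DOX values were below the lowest vehicle value, and BMI1 fell by 1.16 on the log2 scale (SE 0.133, 2.23-fold lower, adjusted p = 7.38e-07, edgeR). Leaving out each sample in turn gave -1.35 to -0.97, always called. The readthrough gene COMMD3-BMI1, which overlaps BMI1, was listed with 0 counts in all 12 samples.

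The ligases moved less. RNF2 (chr1:185045526-185102603), the main H2A ubiquitin ligase, had 46.1, 46.8 and 44.7 CPM with vehicle and 38.5, 37.3 and 35.3 with DOX in DU-145 cells. Its groups did not overlap, and RNF2 fell by 0.30 on the log2 scale (SE 0.0769, adjusted p = 0.00302, edgeR). RING1 (chr6:33208500-33212722), its paralog, had 10.7, 7.89 and 8.82 CPM with vehicle and 10.9, 10.9 and 8.69 with DOX, with overlapping groups and a log2 fold change of 0.15 (interval -0.15 to 0.45, adjusted p = 0.403, edgeR).

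The chromodomain readers were scarce in DU-145 cells. CBX7 (chr22:39120167-39152680, minus strand), another repressor of the CDKN2A locus, had 10.3, 8.80 and 8.82 CPM with vehicle and 4.06, 5.20 and 5.41 with DOX. Each DOX value was below each vehicle value, and CBX7 fell by 0.92 on the log2 scale (SE 0.159, 1.89-fold lower, adjusted p = 7.96e-05, edgeR). CBX2 (chr17:79778148-79787983), which compacts chromatin, had 5.49, 5.16 and 5.46 CPM with vehicle and 3.78, 4.73 and 4.52 with DOX. Although its groups did not overlap, the log2 fold change of -0.30 did not pass (interval -0.66 to 0.07, adjusted p = 0.167, edgeR), at 40 to 67 counts per sample. Groups did not overlap for 7 of the 10 members, and for 57.3% of all genes tested.

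In LNCaP-AI cells, EZH2 alone among the 10 genes was called, and it fell. There 12.7% of the 16030 genes tested were called, 7.22% as higher and 5.52% as lower, so 1 of 10 members is near the background. At an unadjusted p under 0.05 there were 4 members and 31.2% of all genes. The median log2 fold change of the members was -0.08 against -0.05 for all genes.

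EZH2 had 67.5, 71.6 and 64.4 CPM in the LNCaP-AI vehicle samples and 47.6, 37.6 and 40.7 in the DOX samples. The highest DOX value belonged to DOX 1, the sample on the side of vehicle 2 and vehicle 3, and was still below the lowest vehicle value. The means were 67.8 ± 3.65 and 42.0 ± 5.13 CPM (SD, n = 3), a log2 fold change of -0.72 (SE 0.113, 95% interval -0.995 to -0.444, adjusted p = 0.018, edgeR). Within the sides it was -0.79 and -0.51, values with no test, since each side holds a single sample of 1 arm and was defined from these counts. The 5 markers of DU-145 cells summed to 27.4 to 306 CPM with vehicle and 56.2 to 281 with DOX, with 4 of them under 1 CPM on the first side, and proliferation genes moved as well, as given at the end. Leaving out DOX 2 or DOX 3 from the fit of all 6 samples kept the direction, at -0.64 and -0.69, but not the call (adjusted p = 0.0981 and 0.102, edgeR), and the count of called genes then fell from 2043 to 1.

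The other PRC2 genes did not pass in LNCaP-AI cells. EZH1 had 17.9, 17.9 and 19.4 CPM with vehicle and 21.2, 23.4 and 22.5 with DOX. The groups did not overlap, as in DU-145 cells, and the log2 fold change of 0.25 was of similar size (interval 0.02 to 0.49, adjusted p = 0.136, edgeR; 0.36 and 0.18 within the sides). EED had 29.2, 36.2 and 33.2 CPM with vehicle and 31.2, 23.7 and 22.5 with DOX, so that the groups overlapped through DOX 1 and vehicle 1 (log2 fold change -0.38, adjusted p = 0.161, edgeR; -0.34 and -0.15 within the sides). SUZ12 had 149, 132 and 131 CPM with vehicle and 121, 125 and 125 with DOX, without overlap (-0.18, adjusted p = 0.224, edgeR; -0.25 and -0.12 within the sides). JARID2, which rose in DU-145 cells, had 31.5, 36.5 and 40.2 CPM with vehicle and 41.3, 37.0 and 33.2 with DOX. Its groups covered the same range here, and its log2 fold change of 0.02 had an interval from -0.28 to 0.32 (adjusted p = 0.925, edgeR) and was 0.15 and 0.11 within the sides.

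The 5 PRC1 members did not pass in LNCaP-AI cells by edgeR either. BMI1 had 37.4, 27.3 and 27.03 CPM with vehicle and 22.2, 24.6 and 23.9 with DOX, without overlap and with vehicle 1 well above the rest (log2 fold change -0.41, interval -0.80 to -0.02, adjusted p = 0.145, edgeR; -0.62 and -0.29 within the sides). RNF2 had 34.8, 32.4 and 29.4 CPM with vehicle and 32.1, 35.8 and 38.5 with DOX (0.11, interval -0.16 to 0.39, adjusted p = 0.555, edgeR; 0.09 and 0.06 within the sides). RING1 had 6.15 to 7.19 CPM with vehicle and 6.77 to 7.58 with DOX (0.09, adjusted p = 0.709, edgeR; -0.03 and 0.24 within the sides). Both pairs of groups overlapped. CBX2 was far more abundant than in DU-145 cells, with 65.8, 41.4 and 57.1 CPM with vehicle and 38.5, 42.9 and 39.5 with DOX. Its groups overlapped through vehicle 2, and the log2 fold change of -0.47 did not pass (interval -0.92 to -0.03, adjusted p = 0.139, edgeR; -0.68 and -0.34 within the sides). CBX7 had 20.1, 14.2 and 15.2 CPM with vehicle and 14.0, 18.4 and 18.8 with DOX. These values followed the sides, with vehicle 1, DOX 2 and DOX 3 the 3 highest, and the log2 fold change of 0.02 (interval -0.46 to 0.50, adjusted p = 0.952, edgeR) was -0.11 and -0.07 within them. Groups did not overlap for 4 of the 10 members and for 38.1% of all genes tested. The log2 fold changes within the 2 sides had the same sign for 9 of the 10 members, RING1 being the exception, and for 78.7% of all genes tested.

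With the side as a covariate in the edgeR fit, 5 members were called: EZH2, EED, SUZ12, BMI1 and CBX2, all lower with DOX. The adjusted p was 0.0237 for EED, 0.0399 for SUZ12, 0.000263 for BMI1 and 0.000174 for CBX2. That fit called 6271 of the 16030 genes tested, so calls were common among all genes too. Because these counts also defined the sides, its calls serve as a comparison only.

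**Figure D2:**
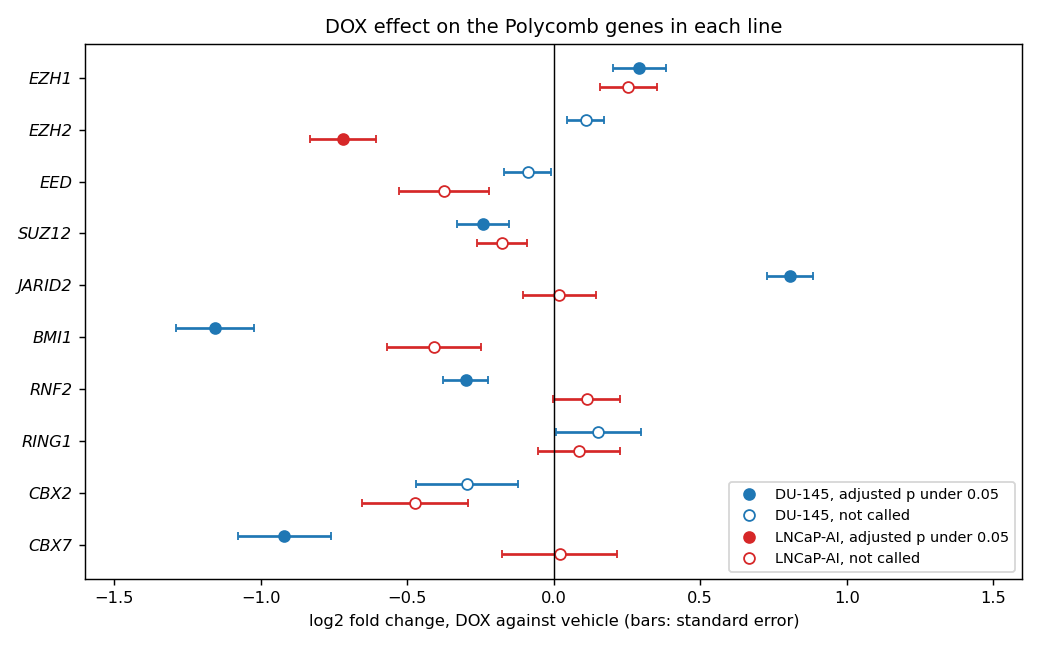
Log2 fold change of DOX against vehicle (horizontal axis) for each of the 10 genes in DU-145 (blue) and LNCaP-AI cells (red), with bars for the standard error and filled points for an adjusted p under 0.05 in edgeR's test. JARID2 at 0.81 and BMI1 at -1.16 are the extremes in DU-145 cells, and EZH2 at -0.72 is the only filled red point.

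A fit over the 12 samples tested the difference in response, the LNCaP-AI effect minus the DU-145 effect (the interaction). EZH2, JARID2, RNF2 and CBX7 differed. Of the 10 genes, 2 were called as higher and 2 as lower, against 5.43% and 3.76% of the 16800 genes tested, or 9.18% together. EZH2 was lower with DOX in LNCaP-AI cells and slightly above vehicle in DU-145 cells, a difference of -0.79 on the log2 scale (SE 0.119, adjusted p = 0.00343, edgeR). JARID2 rose in DU-145 cells alone, and its effects differed by -0.76 (SE 0.148, adjusted p = 0.012, edgeR). These calls held in each of the 12 fits that left out a sample. CBX7 (0.98, SE 0.251, adjusted p = 0.0362, edgeR) and RNF2 (0.45, SE 0.125, adjusted p = 0.0494, edgeR) fell in DU-145 cells and not in LNCaP-AI cells, and each kept its call in 2 of those 12 fits. For BMI1 the difference of 0.78 did not pass (interval 0.20 to 1.36, adjusted p = 0.0909, edgeR), so its effects are not shown to differ between the lines. EZH1 had nearly equal effects, with a difference of 0.00 (interval -0.27 to 0.27).

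The levels before silencing set the lines apart as well. Between vehicle samples, 65.1% of the 15628 genes tested were called, 35.0% as higher and 30.2% as lower in LNCaP-AI cells, and 8 of the 10 members were among them. Of these, 6 were lower in LNCaP-AI than in DU-145 cells: BMI1 (log2 fold change -1.88, adjusted p = 0.000354), EZH2 (-0.97, adjusted p = 6.86e-05), EZH1 (-0.61), EED (-0.59), RNF2 (-0.55) and RING1 (-0.49, adjusted p = 0.0402), all by edgeR's quasi-likelihood test. RING1 lost its call in 4 of the 6 fits that left out a sample. CBX2 and CBX7 went the other way. CBX2 was 9.93-fold higher in LNCaP-AI cells (log2 fold change 3.31, SE 0.195, adjusted p = 1.64e-05, edgeR) and CBX7 1.73-fold higher (0.79, adjusted p = 0.00618, edgeR). SUZ12 (-0.17, interval -0.48 to 0.14) and JARID2 (0.14, interval -0.13 to 0.42) did not pass, although SUZ12 did without DU-145 vehicle 2 (-0.33, adjusted p = 0.028, edgeR) and JARID2 without LNCaP-AI vehicle 1 (0.31, adjusted p = 0.0136, edgeR). Anything done line by line cannot be told apart from the line.

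Levels of different genes can be compared only per length, here as RPKM, the CPM divided by the transcript length in kilobases. Over the canonical Ensembl transcripts, EZH2 had the highest level of the 10 in DU-145 vehicle samples, at 48.7 ± 0.465 RPKM (SD, n = 3), followed by SUZ12 at 33.4 ± 5.15, BMI1 at 30.9 ± 8.45 and EED at 23.1 ± 2.03. SUZ12 and BMI1 did not differ beyond their spread, and CBX2 was lowest at 1.16 ± 0.0394. In LNCaP-AI vehicle samples SUZ12 led at 30.5 ± 2.27 RPKM (SD, n = 3), ahead of EZH2 at 25.6 ± 1.37 and EED at 15.7 ± 1.68. With DOX, EZH2 was at 15.8 ± 1.93 RPKM in LNCaP-AI cells and at 52.2 ± 0.576 in DU-145 cells. The order depends on the length used. Over merged exons, which span 10774 bases for EZH2 against 2654 in its canonical transcript, EZH2 ranked 3 in DU-145 vehicle samples and BMI1 ranked 1.

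The make-up of the families shows the same values as shares over the canonical transcripts, for which no test was run. EZH1 was 13.5 ± 1.12% of the summed EZH level per length in LNCaP-AI vehicle samples and 23.5 ± 3.01% with DOX (SD, n = 3), with no overlap. In DU-145 cells it was 10.8 ± 0.947% and 12.1 ± 0.297%. The size of these shares depends on the length used, since over merged exons EZH1 was 29.5 ± 1.99% and 45.2 ± 4.18% in LNCaP-AI and 24.6 ± 1.83% and 27.02 ± 0.551% in DU-145 cells. BMI1 was 28.0 ± 5.21% of the 6 PCGF genes in DU-145 vehicle samples and 15.1 ± 0.408% with DOX, whereas in LNCaP-AI cells it was 16.3 ± 3.61% and 14.0 ± 1.78%. CBX6 held the largest share of the CBX family in each group, with 54.5 ± 3.35% and 52.8 ± 0.437% in DU-145 and 42.0 ± 2.00% and 43.99 ± 0.865% in LNCaP-AI cells with vehicle and DOX. CBX7 was 5.82 ± 0.260% of that family in DU-145 vehicle samples and 2.95 ± 0.491% with DOX, and CBX2 was 9.98 ± 0.921% and 6.55 ± 0.686% in LNCaP-AI cells. Over merged exons the CBX7 shares in DU-145 cells were 3.97 ± 0.191% and 1.98 ± 0.332%.

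**Figure D3:**
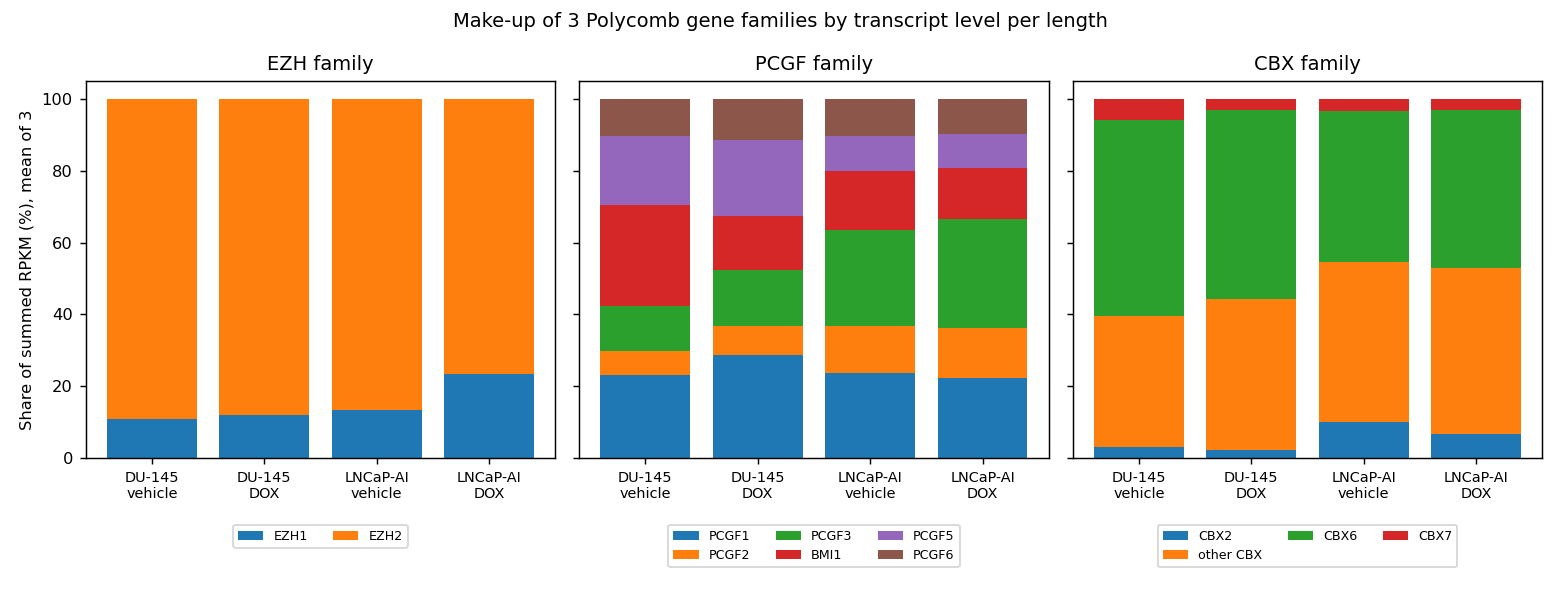
Stacked bars of the mean share (%, vertical axis from 0 to 100, mean of 3 samples) of each gene in the summed level of its family per canonical transcript length, for the EZH, PCGF and CBX families in the 4 groups, with CBX genes not named in the key pooled as other. The EZH1 segment widens from 13.5% to 23.5% with DOX in LNCaP-AI cells, and the BMI1 segment shrinks from 28.0% to 15.1% in DU-145 cells.

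The 10 genes were set beside 59 genes of 7 Polycomb lists, which include them. In DU-145 cells 55 of these were tested, and 17 rose and 14 fell, with a median log2 fold change of 0.00 that equals the median of all genes. Over all genes tested 51.5% were called there, 26.3% as higher and 25.3% as lower, so the 31 of 55 called are near the background. In LNCaP-AI cells 56 were tested, and 1 rose and 5 fell, with a median of -0.14 against -0.05 for all genes, and 6 of 56 called is again near the 12.7% of all genes. No test was run on the single lists below, whose counts are descriptions.

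Of the 6 genes of the PRC2 core, 2 rose and 2 fell in DU-145 cells, beside 26.3% and 25.3% of all genes. In LNCaP-AI cells 2 fell, beside 5.52% of all genes. RBBP4, a histone-binding subunit, fell in both lines. It had 276, 285 and 261 CPM with vehicle and 230, 228 and 223 with DOX in DU-145 cells, a log2 fold change of -0.26 (adjusted p = 0.00238, edgeR). In LNCaP-AI cells it had 337, 347 and 324 CPM with vehicle and 274, 246 and 246 with DOX (-0.42, adjusted p = 0.0253, edgeR; -0.45 and -0.29 within the sides). Its paralog RBBP7 was called as higher in DU-145 cells (0.19, adjusted p = 0.0259, edgeR), but kept the call in only 2 of 6 fits that left out a sample. In the single fit of all 12 samples RBBP7 was not called (adjusted p = 0.649, edgeR). RBBP7 followed the sides in LNCaP-AI cells, at 167, 273 and 246 CPM with vehicle and 223, 118 and 118 with DOX.

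Among the 9 accessory subunits, 7 were tested in each line, and in DU-145 cells 2 rose and 2 fell, beside 26.3% and 25.3% of all genes. In LNCaP-AI cells 0 were called by edgeR, against 1 at an unadjusted p under 0.05 and 1 by DESeq2. PHF1, a reader of histone H3 methylated at lysine 36, rose from 7.68 ± 0.401 to 14.6 ± 1.49 CPM (SD, n = 3) in DU-145 cells (log2 fold change 0.94, adjusted p = 6.39e-06, edgeR). LCORL, a cofactor of PRC2, had 41.1, 32.0 and 42.1 CPM with vehicle and 14.4, 16.7 and 13.9 with DOX. It fell without overlap (-1.35, adjusted p = 1.02e-08, edgeR), the largest decrease among the 59 genes in that line. In LNCaP-AI cells PHF1 had a log2 fold change of 0.18 and LCORL of -0.51, neither called, and the interaction was called for both (-0.73, adjusted p = 0.0477, and 0.87, adjusted p = 0.0304, edgeR). AEBP2 had -0.45 in DU-145 cells, where it fell (adjusted p = 0.000622, edgeR), and -0.13 in LNCaP-AI cells. PHF19 followed the sides in LNCaP-AI cells, at 22.0, 34.4 and 41.9 CPM with vehicle and 30.9, 13.5 and 13.1 with DOX (-0.79, adjusted p = 0.245, edgeR).

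Of the 8 RING and PCGF genes, RNF2 and BMI1 fell in DU-145 cells, beside 25.3% of all genes, and the other 6 were not called. In LNCaP-AI cells edgeR called 0 of these 8 and 0 of the 5 CBX genes, with 1 of each at an unadjusted p under 0.05, and DESeq2 also called 0 of both. PCGF5 had log2 fold changes of -0.13 (DU-145) and -0.21 (LNCaP-AI), and PCGF6 had -0.27 in LNCaP-AI cells. CBX6 had 0.19 in LNCaP-AI cells and did not pass. All 5 CBX genes were higher in LNCaP-AI than in DU-145 vehicle samples, with a median log2 fold change of 1.74 against 0.06 for all genes.

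Among the 6 polyhomeotic and sex comb proteins, which let PRC1 polymerize, 2 rose and 2 fell in DU-145 cells, beside 26.3% and 25.3% of all genes. In LNCaP-AI cells 3 fell, beside 5.52% of all genes. SCML2 had 34.5, 26.4 and 25.2 CPM with vehicle and 12.5, 13.9 and 13.1 with DOX. The groups were well apart, and SCML2 fell by 1.15 on the log2 scale (SE 0.158, adjusted p = 0.0147, edgeR), with -1.35 and -1.05 within the sides. In DU-145 cells SCML2 rose, from 21.6, 26.7 and 23.3 CPM to 32.4, 30.1 and 28.1 (0.35, adjusted p = 0.00585, edgeR). The interaction was -1.46 (adjusted p = 0.00155, edgeR). PHC3 fell in both lines, from 107, 95.9 and 103 CPM to 57.0, 58.4 and 60.8 in LNCaP-AI cells (-0.82, adjusted p = 0.0123, edgeR; -0.84 and -0.80 within the sides) and by 0.18 in DU-145 cells (adjusted p = 0.0494, edgeR), with an interaction of -0.60 (adjusted p = 0.00921, edgeR). SCML1 fell by 0.40 in LNCaP-AI cells (adjusted p = 0.0296, edgeR). In DU-145 cells PHC2 rose (0.42) and SCMH1 fell (-0.28, adjusted p = 0.0173, edgeR). The LNCaP-AI calls of SCML2 and PHC3 were lost without DOX 2 or DOX 3, with adjusted p of up to 0.0917 and 0.0854 (edgeR), and those of RBBP4, SCML1 and KDM6B were kept in 2 of the 6 fits that left out a sample.

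**Figure D4:**
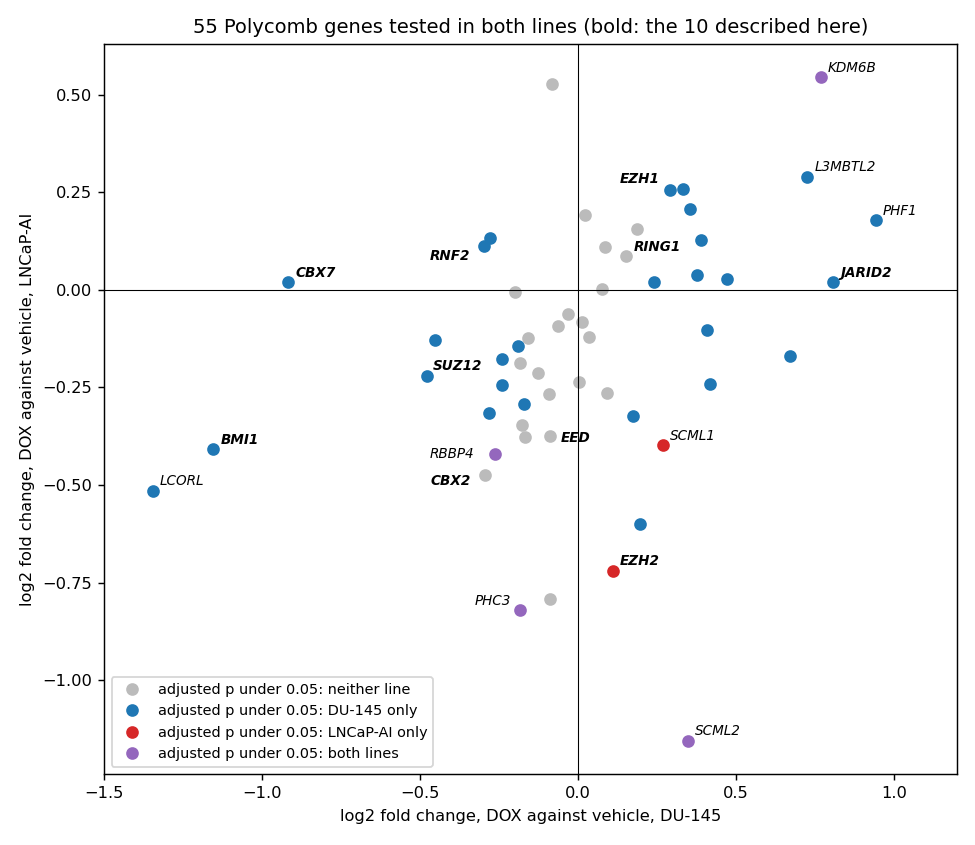
Log2 fold change of DOX against vehicle in DU-145 (horizontal axis) and LNCaP-AI cells (vertical axis) for the 55 Polycomb list genes tested in both lines, coloured by where the adjusted p was under 0.05, with the 10 described genes in bold. SCML2 (0.35 and -1.15) and EZH2 (0.11 and -0.72) lie at the bottom right of the centre, and KDM6B (0.77 and 0.54) at the top right.

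Of the 12 subunits of variant PRC1, 6 rose and 2 fell in DU-145 cells, among 11 tested, beside 26.3% and 25.3% of all genes. L3MBTL2, which also binds methylated histones, rose from 26.1, 24.6 and 21.9 CPM to 36.3, 42.1 and 40.9 (log2 fold change 0.72, adjusted p = 2.12e-06, edgeR), YAF2 rose by 0.47 and BCOR fell by 0.48. In LNCaP-AI cells edgeR called 0 of the 12, against 1 at an unadjusted p under 0.05 and 1 by DESeq2. There L3MBTL2 had 0.29, KDM2B -0.38 and AUTS2 -0.58. Among the 13 genes that remove Polycomb marks or belong to the PR-DUB complex, KDM6B was the only gene of the 59 to rise in both lines. KDM6B, a demethylase of lysine 27, had 32.0, 26.0 and 23.6 CPM with vehicle and 45.1, 48.2 and 45.0 with DOX in DU-145 cells (0.77, adjusted p = 1.99e-06, edgeR). In LNCaP-AI cells it went from 86.7, 78.7 and 108 to 133.5, 134.5 and 138.8 CPM (0.54, adjusted p = 0.0423, edgeR), with 0.66 and 0.53 within the sides. The paralog KDM6A rose by 0.41 and MBD6 by 0.38 in DU-145 cells, and USP16 (-0.24) and ASXL1 (-0.29) were not called in LNCaP-AI cells.

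Of 14 genes known as targets of Polycomb repression, 11 were tested in each line. In DU-145 cells 2 rose and 3 fell, beside 26.3% and 25.3% of all genes, and in LNCaP-AI cells 1 rose and 1 fell, beside 7.22% and 5.52%. CDH1, which encodes E-cadherin, rose from 24.2 ± 0.911 to 60.9 ± 7.97 CPM (SD, n = 3) in DU-145 cells (log2 fold change 1.34, adjusted p = 1.23e-09, edgeR). SFRP1 fell by 0.57 there, and in LNCaP-AI cells it followed the sides, at 176 to 206 CPM on the second side and at most 0.0893 on the first. CDKN2B, a cyclin-dependent kinase inhibitor, had 1.03, 0.910 and 0.764 CPM with vehicle and 4.32, 5.71 and 6.71 with DOX in LNCaP-AI cells. Its groups were clearly separate (2.60, adjusted p = 0.0123, edgeR; 2.57 and 2.34 within the sides). The call was kept in 4 of the 6 fits that left out a sample. It was lost without DOX 2 or DOX 3 (adjusted p = 0.0854 and 0.0829, edgeR). CDKN2B lies opposite an antisense gene, and whether reads were counted by strand is not given in the sources used here. In DU-145 cells CDKN2B had -0.22 and was not called (adjusted p = 0.0837, edgeR). CDKN2A, at the same locus, is known to be repressed by BMI1 and CBX7. In DU-145 cells it had 216, 226 and 194 CPM with vehicle and 219, 221 and 227 with DOX (0.08, adjusted p = 0.38, edgeR). In LNCaP-AI cells CDKN2A had 0.63 and did not pass (adjusted p = 0.0683, edgeR). It passed in 3 of 8 other settings. These were DESeq2 (0.64, adjusted p = 0.0137), the edgeR fit of all 12 samples (0.66, adjusted p = 0.00394) and the side as covariate in edgeR (0.51, adjusted p = 0.000735), the last a comparison only. Of the 6 fits that left out a sample, it passed in 2, those without vehicle 1 or DOX 1 (adjusted p = 0.0442 and 0.0174, edgeR). WNT5A, a secreted signalling protein gene, had 5.09, 3.75 and 2.85 CPM with vehicle and 0.856, 0.686 and 1.18 with DOX in LNCaP-AI cells, where it fell (-2.12, adjusted p = 0.0172, edgeR). The DOX samples held only 12 to 21 counts of WNT5A. Its call was also lost without DOX 2 or DOX 3 (adjusted p = 0.0975 and 0.0829, edgeR). Methylation of lysine 27 was not measured.

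The proliferation genes are set out here because EZH2 is known to be higher in cycling cells. Their summed level over 18 genes was 6303 to 6639 CPM with vehicle and 4794 to 5105 with DOX in DU-145 cells, and 4440 to 4757 and 2049 to 3149 CPM in LNCaP-AI cells. In DU-145 cells 11 fell and 1 rose, beside 25.3% and 26.3% of all genes, with a median log2 fold change of -0.26 against 0.00 for all genes. In LNCaP-AI cells 10 fell, beside 5.52% of all genes, with a median of -0.91 against -0.05 for all genes. CCNA2, BUB1 and TOP2A fell by 1.04, 0.70 and 0.69 in DU-145 cells, where EZH2 was not called. MKI67, CCNA2, PLK1, CCNB1, MCM2 and MCM7 fell by 1.28, 1.28, 1.24, 0.998, 0.80 and 0.67 in LNCaP-AI cells, where EZH2 fell by 0.72. The LNCaP-AI calls of MKI67, CCNA2 and PLK1 were each kept in only 1 of the 6 fits that left out a sample. Those of CCNB1, MCM2 and MCM7 were each kept in 4 of the 6. Within the sides, values with no test, MKI67 had -1.58 and -0.72, PLK1 -1.48 and -0.71, and MCM7 -0.79 and -0.42. The 6 MCM genes, subunits of the replicative helicase, differed among themselves in DU-145 cells. MCM7 rose (0.17, adjusted p = 0.03, edgeR), MCM4 and MCM6 fell (-0.54 and -0.23), and MCM2 (0.07), MCM3 (-0.11) and MCM5 (-0.16) were not called. In LNCaP-AI cells their log2 fold changes ran from -0.92 to -0.67, with 4 called. The interaction was called for MCM2 (-0.84, adjusted p = 0.00373, edgeR) and MCM7 (-0.80, adjusted p = 0.00327, edgeR) and not for the other 4 MCM genes. The part of proliferation in the EZH2 result was not tested. Over the 12 samples, the genes most like EZH2 in their log2 deviations from the mean of each line, among 9630 genes of at least 10 CPM, were CEP128, TDP1, RFC2, CWC22 and MCM7, with Pearson correlations of 0.98, 0.98, 0.98, 0.97 and 0.97. These are descriptions over samples that share their libraries. Among the members, EED came closest to EZH2 at 0.77, and JARID2 was opposite to CBX7 (-0.94), BMI1 (-0.85) and RNF2 (-0.85). The deviations keep the difference between DOX and vehicle, so the correlations partly restate the DOX effects given above.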

How the data were processed

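Raw counts per gene were used as deposited by the authors, who made stranded TruSeq mRNA libraries from total RNA and aligned the reads to GRCh38 with STAR. The submitters' processing notes list CASAVA 1.8.2, STAR 2.7.0, DESeq2 1.24.0 and GRCh38.p7. The counting tool and its use of strand are not given in the sources used here. Of 58037 Ensembl identifiers, 56948 had a symbol. The 10 genes and the lists were chosen with earlier results of these data known.

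Genes with at least 10 counts in 3 samples were tested in each comparison with edgeR 4.0.16 (R 4.3.3), with TMM normalization, the quasi-likelihood test (2-sided) and Benjamini-Hochberg adjustment over all genes tested, and were called at an adjusted p under 0.05. Log2 fold changes come from these fits, and CPM values from a single TMM scaling of the 12 samples. Lengths and positions are from GENCODE 44. List genes are named if called with a log2 fold change beyond ±1, or if among the 3 smallest adjusted p of their list. Some list genes and markers are not reported here. DESeq2 1.42.0, other scalings, filters and sample sets were alternatives. Replicates of a group differed by more than counting noise, so each was counted. The script was tested on simulated data.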

Additional observations from a re-analysis of the deposited data

Results flagged for a closer look

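These results are set out because the effect of DOX differed between LNCaP-AI and DU-145 cells in edgeR's interaction test with Benjamini-Hochberg adjustment, each value being the LNCaP-AI log2 effect minus the DU-145 log2 effect. Among the members, EZH2 differed by -0.79, JARID2 by -0.76, RNF2 by 0.45 and CBX7 by 0.98. MUC1 itself differed by 1.95 (adjusted p = 0.0241), a value that rests on DU-145 DOX samples with 3 counts each, so the depth of silencing in the 2 lines cannot be compared closely. Of the other Polycomb genes, SCML2 differed by -1.46, PHC3 by -0.60, PHF1 by -0.73 and LCORL by 0.87. Of the genes known as Polycomb-repressed, CDKN2B differed by 2.86, CDH1 by -1.11 and WNT5A by -2.08. The calls of EZH2, JARID2, SCML2, PHC3, CDKN2B, CDH1 and WNT5A held in all 12 fits that left out a sample, whereas LCORL kept its call in 4 and PHF1, RNF2 and CBX7 in 2 of those fits.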

How the results depend on the processing

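In DU-145 cells 7033 genes, 31 Polycomb list genes and 6 members were called. The single fit of all 12 samples called 4083 genes and 16 list genes, and fits without 1 sample gave 5973 to 7115 genes, 23 to 33 list genes and 4 to 6 members. The calls of JARID2, BMI1, RNF2 and CBX7 held under every alternative. SUZ12 was not called in the single fit (adjusted p = 0.116).

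In LNCaP-AI cells the 2043 genes, 6 list genes and 1 member became 3517 genes with DESeq2, 3933 genes, 10 list genes and 3 members in the fit of all 12 samples, and 6271, 22 and 5 with the side as covariate. The first side alone gave 7554, 29 and 6 and the second 2546, 6 and 1. Both fits, added after the data were seen, have 1 sample in an arm, assumed to vary like the others, and a split made on these counts, so they support no call. Fits without 1 sample gave 1 to 3538 genes, 0 to 10 list genes and 0 to 2 members, with the lowest values without DOX 2 or DOX 3 and the highest count of genes without DOX 1. CBX2 was called without vehicle 2 (adjusted p = 0.038, edgeR) and EED without DOX 1 (adjusted p = 0.0479, edgeR). The interaction count of 1543 genes and 4 members became 884 genes and 2 members without a filter, and 737 to 3471 genes and 2 to 5 members without 1 sample. BMI1 passed the interaction test with DESeq2 (adjusted p = 0.0335). Between vehicle samples, fits without 1 sample gave 7762 to 9938 genes and 7 to 9 members. The share of higher calls in LNCaP-AI cells, 56.7%, was 62.6% with upper-quartile scaling, 70.9% without vehicle 1, 48.6% without a filter and 48% with the side as covariate.

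Replicate numbers did not pair the samples: the mean correlation of deviations was 0.0344 in DU-145 and -0.858 in LNCaP-AI cells. With the replicate block, LNCaP-AI cells had 0 genes, 0 list genes and 0 members called, with 2909 genes at an unadjusted p under 0.05, and the interaction had 52 genes and 0 members.

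Directions turned only for these values near 0. In LNCaP-AI cells JARID2 was -0.032 without a filter and -0.061 to 0.10 without 1 sample. CBX7 was -0.018 without a filter, -0.12 with the side as covariate, -0.11 and -0.0767 on the sides alone, and -0.086 to 0.20 without 1 sample. On the first side alone RING1 was -0.030 and CBX6 -0.078, and on the second PCGF5 was 0.014. The EZH1 interaction was 0.016 with DESeq2, 0.022 with median-ratio factors, 0.057 with upper-quartile scaling, 0.0046 with at least 1 CPM, and -0.055 to 0.072 without 1 sample. The RING1 interaction was 0.019 with upper-quartile scaling and -0.16 to 0.062 without 1 sample, and that of CBX2 was -0.31 to 0.0097. The cause of these changes was not tested. Depth limits CBX2 most among the members in DU-145 cells, at 40 to 67 counts per sample.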
